A study of Mus musculus with 2 samples.

Results

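The 69 genes described here encode the ligands and receptors of axon guidance in the mouse: the semaphorins with their plexin and neuropilin receptors, the ephrins with the Eph receptors, the netrins with Dcc and the Unc5 receptors, and the Slit ligands with the Robo receptors. They were chosen by symbol among the 55536 genes of the deposited gene tables, of which 21978 have a protein-coding transcript, by a rule that uses no measured value. Of the 69, 35 encode ligands and 34 encode receptors. Noncoding genes whose symbols start alike, such as the antisense genes of Plxna4, were left out.

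Total RNA from hippocampus, labelled as a layer of hippocampus, was sequenced in 2 libraries of 1 group. All mice were male B6CASTF1/J, a hybrid of the C57BL/6J and CAST/EiJ strains, at 14 days of age, with no treatment given in the labels. The libraries are numbered as biological replicates 1 and 2, each listing its own 3 males without stating whether these were pooled, and both started from 300 ng of RNA with ERCC spike-ins, synthetic RNAs added in known amounts. With a single group there was no condition to compare, so levels, ratios between genes, transcript forms and differences between the libraries are described. Values are means ± SD over both libraries (n = 2) unless a library is named.

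Growing axons carry guidance receptors at the growth cone, where binding of a ligand shifts the actin and microtubule skeleton towards advance, retraction or turning. Secreted ligands (class 3 semaphorins, netrins, Slits) act over some distance, while most ephrins and the other semaphorins are held in membranes and act at contact. In the hippocampus these systems are known for the layered arrival of entorhinal and mossy fibre axons, for pruning of mossy fibre branches, and later for the shaping of dendritic spines.

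The level of a gene is given in TPM, a count divided by transcript length and scaled to a fixed total per library, so that levels can be compared between genes. Of the 69 genes, 64 reached a TPM of 1 in each library and are called detected, where 58.7% of protein-coding genes did. The median level of the 69 was 18.9 TPM, against 14.9 over the protein-coding genes with a mean of at least 1, and 39 lay above that value. There were 12 genes at a mean of at least 50 TPM, 32 between 10 and 50, 20 between 1 and 10, and 5 under 1. The 5 highest held 25.7% of the summed TPM. In bulk tissue, fewer cells of a type and less RNA per cell cannot be told apart. Receptor genes summed to 1091 ± 89.8 TPM and ligand genes to 703 ± 38.5.

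**Figure D1:**
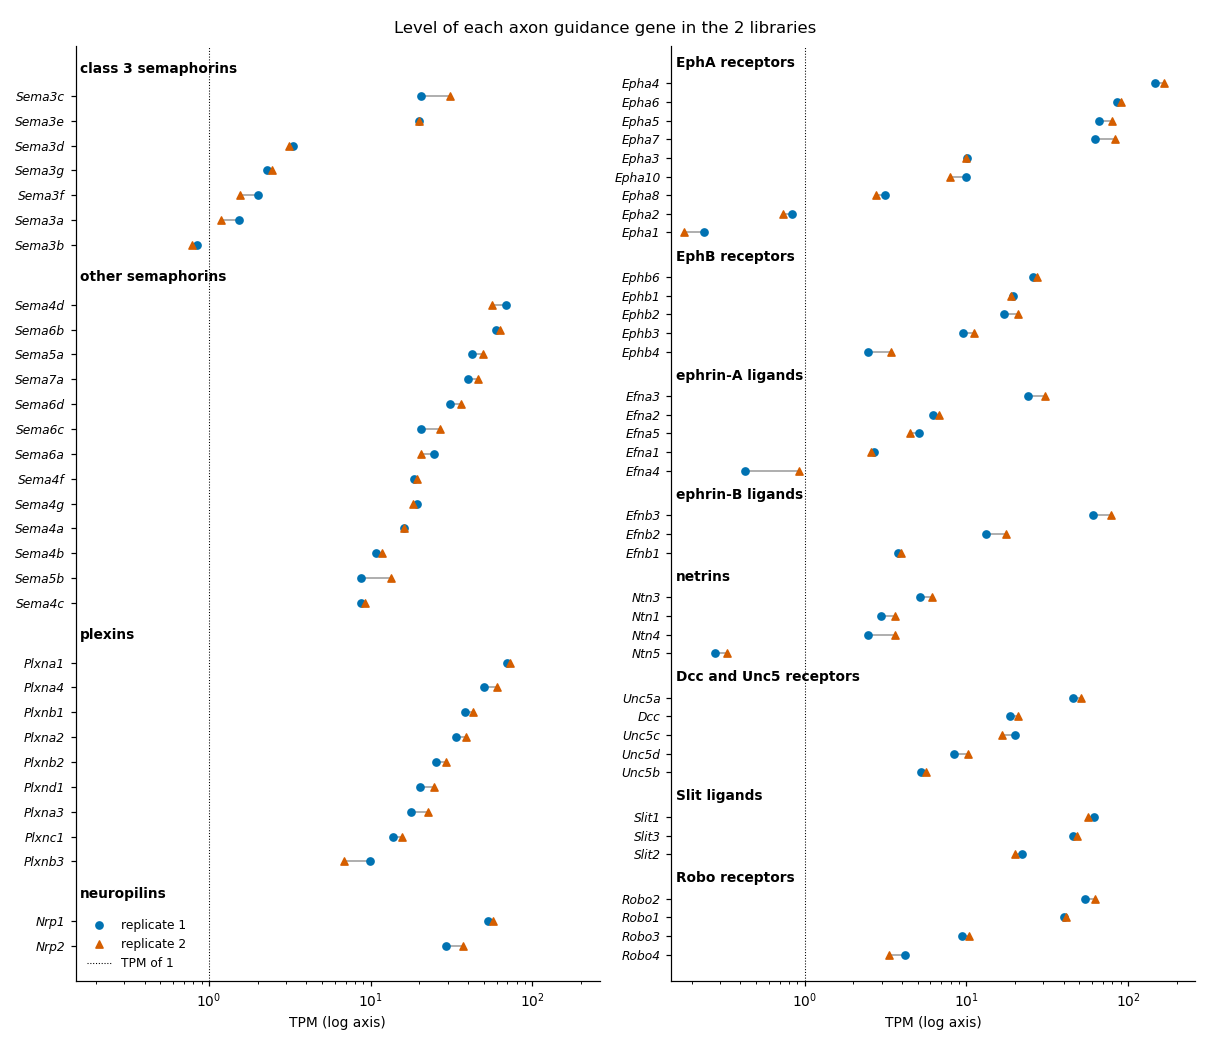
TPM of each gene on a log axis, grouped by family, with circles for replicate 1 and triangles for replicate 2 and a dotted line at a TPM of 1. Epha4 is the highest at 146 and 166, and the class 3 semaphorins, netrins and ephrin-A genes hold most of the genes near or under 1.

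The tissue label was set beside marker genes. All 3 excitatory neuron markers were detected, with Camk2a at 1260 and 1307 TPM and Slc17a7 at 663 and 687, and all 3 dentate granule markers were detected. By the same limit 2 of 3 thalamic and 3 of 4 choroid plexus markers were detected too, so detection alone does not identify the tissue. Markers of other cells and of neighbouring tissue differed between the libraries: the 5 myelin markers summed to 1595 TPM in replicate 1 and 829 in replicate 2, the 3 thalamic neuron markers to 45.2 and 24.8, and the 4 choroid plexus markers to 91.3 and 49.2. In the other direction, the 4 immature neuron markers summed to 78.1 and 113 TPM, the 3 dentate granule markers to 64.6 and 93.2, and the 5 endothelial markers to 56.8 and 72.2. None of the markers in these 6 lists was at 0, and the lowest was Otx2 of the choroid plexus at 1.19 and 0.19. Gene counts totalled 29144892 in replicate 1 and 31755578 in replicate 2, of which the 69 genes took 163086 and 194225.

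Eph receptors are tyrosine kinases that bind ephrins on neighbouring cells, and the EphA genes were the most abundant family, with a summed level of 414 ± 40.6 TPM over 9 genes. Epha4 (ENSMUSG00000026235.14, chromosome 1, 77367185 to 77515088, minus strand, mm10), a receptor that binds ephrins of both classes, had 146 TPM in replicate 1 and 166 in replicate 2, the highest level of the 69 and at the percentile 96.4 of detected protein-coding genes. Epha6 followed with 86 and 90.9 TPM. Epha4 stood above all other genes of the family in both libraries, while Epha6 was near the 2 genes that follow.

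Epha5 had 66.2 TPM in replicate 1 and 80 in replicate 2, and Epha7 62.3 and 83.5. Both were higher in replicate 2, and their order was not the same in the 2 libraries. On the log2 scale Epha4 exceeded Epha7 by 1.11 ± 0.17 and Epha5 by 1.10 ± 0.061. The other EphA genes were lower, from Epha3 at 10 ± 0.00707 and Epha10, whose kinase domain is thought inactive, at 8.91 ± 1.39, down to Epha8 at 2.96 ± 0.29. Epha2 (0.84 and 0.74 TPM) and Epha1 (0.24 and 0.18, from 12 counts in each library) were under 1 in both.

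Epha7 has shortened forms that are known to keep the extracellular part and to lack the kinase domain. Its transcript shares, from a deposited table in the layout of the quantifier RSEM, are shown here with the sequences at which the forms part. Epha7-202 and Epha7-204, with 610 and 626 codons, together held 59.4% ± 0.127 of the TPM of the gene, 59.3% in replicate 1 and 59.5% in replicate 2. Epha7-201, with 998 codons, held 20.8% ± 1.72, and Epha7-203, with 994, 3.98% ± 0.615. Counted as reads instead, where long transcripts weigh more, the 2 short forms held 45.2%. Epha7-201 held 41.1% and Epha7-203 7.76%, so by reads the sum of these longer forms was the higher. A second transcript table, in the layout of kallisto, gave TPM shares of 54.2% ± 0.914 for the short forms and 20.1% ± 2.34 for Epha7-201. The shorter forms thus led in both tables and both libraries by TPM, but not by reads.

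The 3 forms share their coding sequence up to base 1798, counted from the A of the start codon. Below, the last 24 shared bases are in lower case and the bases of each form that follow are in capitals. The capitals of Epha7-201 are the first 60 of 1196 and lie at chr4:28947528-28947587, those of Epha7-202 are all 32 before its stop codon at chr4:28946219-28946250, and those of Epha7-204 are the first 60 of 80 at chr4:28966523-28966582, all on the plus strand of mm10 and in coding exons of GENCODE M21.
Epha7-201: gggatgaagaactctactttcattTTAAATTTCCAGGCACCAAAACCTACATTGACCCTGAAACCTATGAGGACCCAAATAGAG
Epha7-202: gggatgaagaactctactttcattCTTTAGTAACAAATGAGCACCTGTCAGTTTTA
Epha7-204: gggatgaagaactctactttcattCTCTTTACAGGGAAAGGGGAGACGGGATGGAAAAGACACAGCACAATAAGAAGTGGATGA

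Epha5 was spread over more forms. Transcripts with under 900 codons held 51.5% ± 0.905 of its TPM and those with over 1000 codons 16.8% ± 3.68. Counted as reads, the shares were 65% and 17.7%. These groups were formed by codon number alone, and whether the shorter forms lack the kinase domain was not examined. The transcript with the highest share of TPM was Epha5-207, a retained-intron transcript, at 21.2% ± 0.17, ahead of the coding Epha5-204 at 18.5% ± 0.622. In the kallisto-layout table the order turned, with 15.1% for Epha5-207 and 23.2% for Epha5-204. Of the 50 genes with a mean of at least 5 TPM and at least 2 annotated transcripts, Epha5 was the one whose leading transcript was not annotated as coding. The same held for 654 of the 9438 protein-coding genes within those limits.

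EphB receptors, which bind ephrin-B ligands and take part in synapse formation, summed to 78.1 ± 5.31 TPM. Ephb6, a family member with an inactive kinase domain, had 26 TPM in replicate 1 and 27.5 in replicate 2. Ephb1 had 19.4 and 18.9, and Ephb2 17 and 20.8, so that their order differed between the libraries and the pair was not called different (log2 ratio 0.02 ± 0.23). Ephb3 (10.4 ± 1.14) and Ephb4 (2.94 ± 0.693), a receptor known from veins, were lower.

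Ephrins are the membrane-held partners of the Eph receptors and had a lower sum in the A class. The 5 ephrin-A genes summed to 42 ± 4.72 TPM and the 3 ephrin-B genes to 88.7 ± 15.9. Efnb3 (chromosome 11, 69554092 to 69560205, minus strand), known in the hippocampus for its place at synapses, held 78.2% of the ephrin-B sum, with 60.4 TPM in replicate 1 and 78.4 in replicate 2. It exceeded Efnb2, the ephrin of arteries that neurons also make, by 2.17 ± 0.031 on the log2 scale, or 4.49-fold.

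Among the ephrin-A genes, Efna3 led with 24.2 TPM in replicate 1 and 30.6 in replicate 2, followed by Efna2 at 6.22 and 6.78. Efna5, a ligand of EphA receptors studied in topographic mapping, had 5.12 and 4.46. Efna3 exceeded Efna5 by 2.51 ± 0.38 on the log2 scale. Efna1, Efna3 and Efna4 lie side by side on the minus strand of chromosome 3 (89271733 to 89338028), and no other coding gene was counted between them. On the opposite strand, Efna3 overlaps the annotated gene Gm15998 and Efna4 overlaps 4731419I09Rik. Their levels differed widely, with Efna3 at 10.5 times the mean level of Efna1 and 40.4 times that of Efna4, which had 13 counts in replicate 1 and 30 in replicate 2.

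Set against each other, receptor and ligand levels differed in both directions. Epha5 exceeded Efna5 by 3.93 ± 0.33 on the log2 scale, or 15.2-fold, and Epha4 exceeded Efnb3 by 1.18 ± 0.13. Ephb2 lay below Efnb3 by 3.66-fold (log2 ratio -1.87 ± 0.057).

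Semaphorins other than class 3 are mostly anchored in the membrane, and all 13 of their genes were detected, with a summed level of 377 ± 12 TPM. Sema4d (chromosome 13, 51685529 to 51793747, minus strand), a ligand that oligodendrocytes are known to carry, had 69.1 TPM in replicate 1 and 56.2 in replicate 2. Sema6b had 59.6 and 62.6, Sema5a 42.3 and 49.8, and Sema7a, the family member held by a lipid anchor, 40 and 45.9. The leading transcript of Sema4d, Sema4d-204, has an incomplete coding sequence and held 41% ± 0.552 of its TPM but 20.6% of its reads. Sema4d-201, with 861 codons, held 31.8% ± 2.46 of the TPM and 60.7% of the reads. By counts, where long transcripts weigh more, Sema4d (3063 and 2900) lay below Sema6b (4321 and 4834). None of the 13 fell below the 8.96 ± 0.311 TPM of Sema4c. Sema5a exceeded its paralogue Sema5b by 2.09 ± 0.27 on the log2 scale, or 4.26-fold.

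Class 3 semaphorins are secreted and act through neuropilins. Their 7 genes summed to 55 ± 6.82 TPM, and Sema3c (20.4 and 30.7) and Sema3e (19.8 and 20) made up most of that. Sema3d, Sema3g, Sema3f and Sema3a lay between 1.36 and 3.21 TPM. Sema3a, the classical collapsing signal, had 1.54 TPM from 105 counts in replicate 1 and 1.19 from 139 counts in replicate 2, which put it just inside the limit of 1. Sema3f (2.02 and 1.55) was the next above, and Sema3b (0.84 and 0.78) lay just outside. From replicate 1 to replicate 2 the counts of Sema3a rose while its TPM fell. In the kallisto-layout table the mean was 2.02 TPM for Sema3a and 1.32 for Sema3b. Their places near the limit thus depended on the table. Sema3a and Sema3f were not called different (log2 ratio -0.39 ± 0.0072), though in the kallisto-layout table they were (-0.77 ± 0.012).

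Sema3d, Sema3a and Sema3e follow each other on the plus strand of chromosome 5 (12383385 to 14256689), with 1 other gene between Sema3a and Sema3e. The middle gene, Sema3a, was the lowest at 1.36 ± 0.247 TPM, and Sema3e had 14.6 times its level. Sema3d differed from Sema3a by 2.36-fold. Other neighbours were closer in level than Sema3a and Sema3e, such as Robo1 and Robo2 (1.42-fold), Sema3b and Sema3f (2.2-fold), Plxnb3 and Plxna3 (2.41-fold) and Robo4 and Robo3 (2.63-fold). Efna3 and Efna4 (40.4-fold) and Ephb6 and Epha1 (128-fold) were farther apart, with Efna4 and Epha1 under 1 TPM.

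Neuropilins bind class 3 semaphorins and pass the signal through plexins. Nrp1, the receptor of Sema3a and also of the vascular growth factor VEGF, had 53.1 TPM in replicate 1 and 57.4 in replicate 2. Nrp2, the receptor of Sema3f, had 29.4 and 37.1. In both libraries the 2 receptors lay above all 7 class 3 ligands. Nrp1 exceeded Nrp2 by 0.74 ± 0.16 on the log2 scale. Of the 2 ligand and neuropilin pairs examined, Sema3a lay 40.8-fold under Nrp1 (log2 ratio -5.35 ± 0.34) and Sema3f 18.7-fold under Nrp2 (-4.22 ± 0.51). Sema3c and Sema3e, the highest class 3 genes, were nearer to Nrp2, at 25.5 and 19.9 TPM against 33.3.

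Nrp2 is made in forms whose membrane-spanning and intracellular ends differ. The 2 transcripts that share the stop codon of Nrp2-205 held 38.6% ± 2.73 of the TPM of the gene, and the 4 that share that of Nrp2-204 held 51.6% ± 1.78. The single transcript with the highest share was Nrp2-205, at 37.8% ± 3.9, in the RSEM-layout table and Nrp2-204, at 37.3% against 36.4%, in the kallisto-layout table. Neither kind of end was rare in either library, at 40.5% and 36.7% for the first and 50.4% and 52.9% for the other. The alternative ends start after coding base 2425 and are shown with 24 shared bases in lower case and the first 60 of 278 (Nrp2-205, chr1:62795709-62795768) and of 302 (Nrp2-204, chr1:62815333-62815392) specific bases in capitals, plus strand. Nrp2 and the later genes whose sequences are printed were chosen for this after their values were seen.
Nrp2-205: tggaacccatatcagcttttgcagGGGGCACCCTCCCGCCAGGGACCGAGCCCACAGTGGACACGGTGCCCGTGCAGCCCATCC
Nrp2-204: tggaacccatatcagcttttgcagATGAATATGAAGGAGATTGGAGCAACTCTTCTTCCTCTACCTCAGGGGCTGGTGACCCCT

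Plexins are the signalling receptors of the semaphorins, and their 9 genes, all detected, summed to 296 ± 24.2 TPM. The A class, which pairs with neuropilins, led with Plxna1 at 69.6 TPM in replicate 1 and 72.6 in replicate 2 and Plxna4 at 50.2 and 60.1. Plxnb1, the receptor of Sema4d, had 38.5 and 43.1. Plxna4 exceeded Plxna3 by 1.46 ± 0.06 on the log2 scale and Plxna1 exceeded Plxna2 by 0.97 ± 0.098. Plxnb3, known from oligodendrocytes, was the lowest at 8.34 ± 2.11.

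Semaphorins and their plexins were compared in the same way. Sema7a exceeded its receptor gene Plxnc1 by 1.55 ± 0.023 on the log2 scale, and Sema6a, a membrane ligand of the mossy fibre system, lay below Plxna2 by 1.62-fold (-0.70 ± 0.33). Sema3e and Plxnd1, a direct pair that needs no neuropilin, were not called different (-0.16 ± 0.2). Sema4d to Plxnb1, at 0.61 ± 0.32, did not exceed 2 SD and was not called, while in the kallisto-layout table it was (0.68 ± 0.23).

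Netrins are secreted cues that attract axons through Dcc and repel them through Unc5 receptors. They were the family with the lowest sum, at 12.3 ± 1.98 TPM over 4 genes, with Ntn3 at 5.19 and 6.17, Ntn1 at 2.99 and 3.6, Ntn4 at 2.46 and 3.62, and Ntn5 at 0.28 and 0.33. Ntn3 overlaps the coding gene Tbc1d24 on its own strand, and the posterior standard deviation of its deposited count was 0. The receptors were higher in both libraries, with a sum of 102 ± 4.55. Unc5a had 45.9 TPM in replicate 1 and 51.5 in replicate 2, Unc5c 20.1 and 16.6, and Dcc (chromosome 18, 71253634 to 72351069, minus strand) 18.6 and 20.9. Dcc lay 6.01-fold above Ntn1 (log2 ratio of Ntn1 to Dcc -2.59 ± 0.074).

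Dcc and the Unc5 genes each had coding forms that differ by a short segment. Dcc-202, with 1447 codons, held 65.3% ± 0.354 of the TPM of Dcc and Dcc-201, shorter by 60 coding bases, 29.9% ± 0.332. Of the TPM in those 2 forms, the longer took 68.6% by the RSEM-layout table and 63.8% by the kallisto-layout table. The SD between the libraries was small beside the difference between the forms.

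In Unc5a the shorter form prevailed. Unc5a-202 held 90.2% of the TPM in replicate 1 and 90% in replicate 2, and Unc5a-201, which has 168 more coding bases, 5.15% and 5.01%. In the kallisto-layout table the shares were 89.4% ± 0.746 and 8.72% ± 1.92. The added bases form 1 exon after coding base 721, in the extracellular part of a receptor known for its immunoglobulin and thrombospondin domains, and they keep the reading frame. Unc5a overlaps the coding gene Hk3 on the opposite strand.

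Unc5c-202 held 51.6% ± 4.32 of the TPM of Unc5c, and Unc5c-201, with an exon of 57 more bases, 22.4% ± 1.8. For Unc5d the longer form led, with 67.1% ± 5.12 for Unc5d-201 and 27.4% ± 1.89 for Unc5d-204, which lacks segments of 15 and 39 bases. The longer form was thus the minor one in Unc5a and Unc5c and the major one in Unc5d. The segments are shown in capitals between shared bases in lower case, all in frame: Unc5a-201 at chr13:54997193-54997360 and Unc5c-201 at chr3:141786857-141786913, both on the plus strand, and Unc5d-201 at chr8:28725148-28725162 and chr8:28724221-28724259, on the minus strand.
Unc5a-201: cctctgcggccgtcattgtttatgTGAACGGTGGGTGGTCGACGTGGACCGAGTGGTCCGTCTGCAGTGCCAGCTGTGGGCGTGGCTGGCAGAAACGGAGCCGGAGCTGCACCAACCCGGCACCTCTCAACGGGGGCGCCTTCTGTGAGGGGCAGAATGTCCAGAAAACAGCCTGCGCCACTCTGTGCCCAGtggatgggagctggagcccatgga
Unc5c-201: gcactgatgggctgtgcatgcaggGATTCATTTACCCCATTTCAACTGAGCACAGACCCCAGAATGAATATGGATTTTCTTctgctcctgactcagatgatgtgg
Unc5d-201, first segment: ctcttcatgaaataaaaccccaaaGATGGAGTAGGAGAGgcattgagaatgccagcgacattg
Unc5d-201, other segment: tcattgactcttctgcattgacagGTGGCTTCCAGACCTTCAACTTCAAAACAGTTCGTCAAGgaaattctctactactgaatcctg

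Slits are secreted ligands that repel axons and promote branching, and their 3 genes summed to 127 ± 2.97 TPM. Slit1 had 61.4 TPM in replicate 1 and 56.9 in replicate 2, Slit3 45.9 and 48.4, and Slit2 22.1 and 19.9. The order was the same in both libraries. Slit1 exceeded Slit2 by 1.50 ± 0.033 on the log2 scale and Slit3 exceeded Slit2 by 2.25-fold (log2 ratio of Slit2 to Slit3 -1.17 ± 0.16).

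Slit1 was divided between a pair of forms that end differently. Slit1-201, with 1531 codons, held 52% ± 1.81 of its TPM, and Slit1-203, with 1458 codons, 45% ± 1.05. The order of the forms was the same in replicate 1 (50.7% and 45.8%) and replicate 2 (53.3% and 44.3%), and in replicate 1 of the kallisto-layout table it turned (49.6% and 50.4%). After coding base 4357, Slit1-203 reads on past the splice site of the shared exon and reaches its stop codon after 17 bases (chr19:41601472-41601488), while Slit1-201 goes on for 236 bases, the first 60 of which are shown (chr19:41600630-41600689). Both are on the minus strand, with the specific bases in capitals.
Slit1-201: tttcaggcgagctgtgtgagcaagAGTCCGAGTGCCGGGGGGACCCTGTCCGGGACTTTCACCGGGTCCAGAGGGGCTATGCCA
Slit1-203: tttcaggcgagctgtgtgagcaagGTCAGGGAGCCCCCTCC

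Robo1 and Robo2 bind Slits through immunoglobulin domains. The 4 Robo genes summed to 113 ± 6.64 TPM, close to the sum of the Slit genes. Robo2 had 54.3 TPM in replicate 1 and 62.1 in replicate 2 and Robo1 40.2 and 41.6. Robo1 lay 1.42-fold below Robo2 (log2 ratio -0.51 ± 0.1), just past the margin of 0.5, and in the kallisto-layout table the pair was not called (-0.21 ± 0.074). Robo3, known from commissural axons, had 9.36 and 10.4, and Robo4, an endothelial member, 4.17 and 3.34. Slit2 lay 2.77-fold below Robo2 (-1.47 ± 0.25).

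Robo1-201, with 1612 codons, held 56.1% ± 5.25 of the TPM of Robo1, but 36.3% in the kallisto-layout table, where the incomplete coding transcripts Robo1-206 and Robo1-205 held 29.5% and 20.8%. Robo3-202 held 46.1% ± 4.37 of the TPM of Robo3, and its retained-intron transcripts Robo3-206 and Robo3-203 28.6% ± 0.679 and 9.28% ± 1.14. Robo3-205 held 17.6% in replicate 1 and 0.02% in replicate 2 and Robo3-201 0.09% and 11.7%, so the shares of these forms of Robo3 were not settled by the libraries. Robo2 was split among 13 transcripts, of which Robo2-202 held the most at 30.6% ± 1.39.

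**Figure D2:**
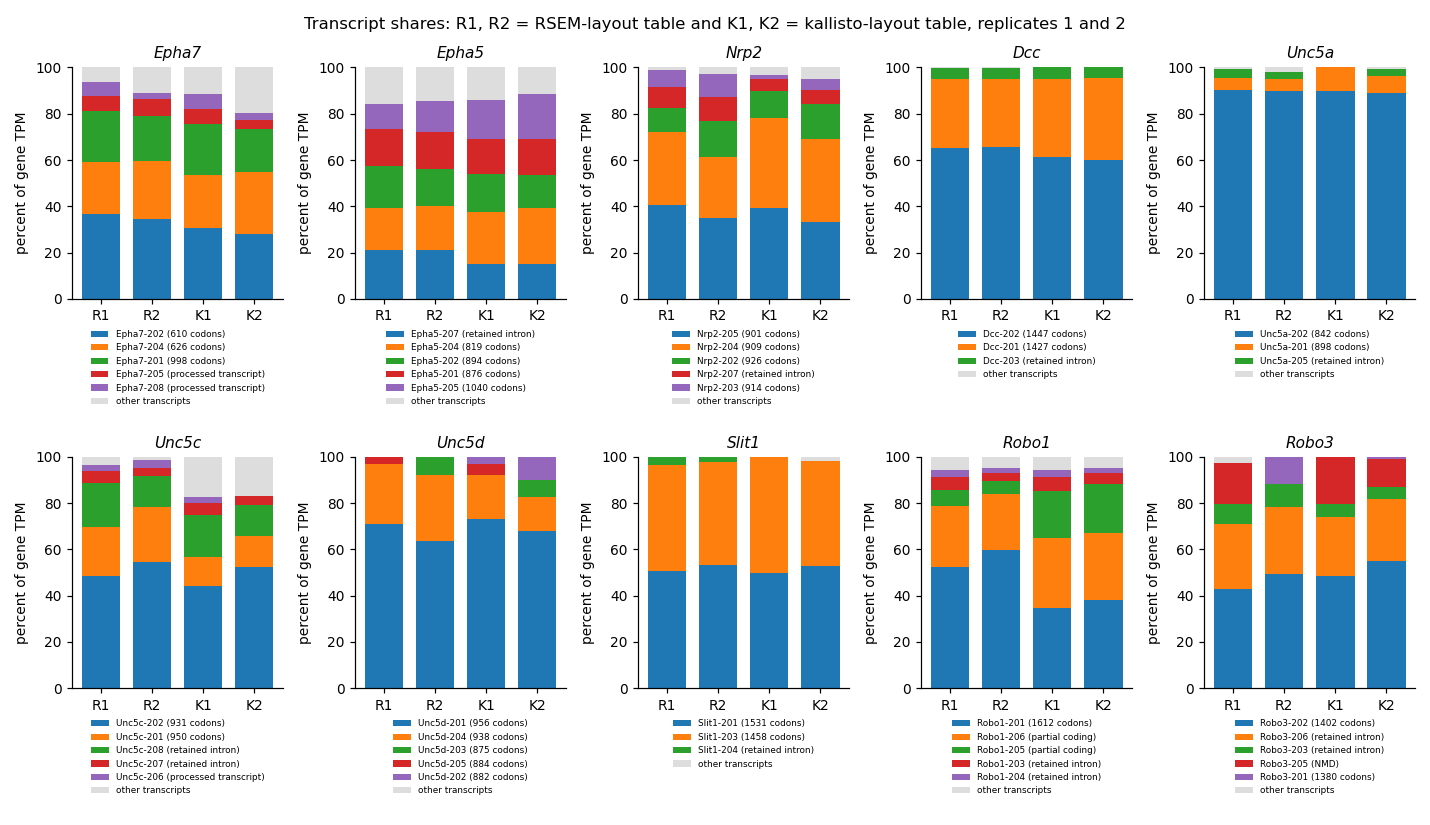
Percent of the gene's TPM in each transcript for 10 genes, with bars for replicates 1 and 2 of the RSEM-layout table (R1, R2) and of the kallisto-layout table (K1, K2). The shorter forms Epha7-202 and Epha7-204 make up over 50% of Epha7 in all 4 bars, and Unc5a-202 about 90%.

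Over all 50 genes examined for transcripts, a leading transcript held over 50% of the TPM in 33, where 67.9% of protein-coding genes of that level had one, a share close to that of the 50. Both tables named the same leading transcript in 47, against 76.4% of protein-coding genes, with Nrp2, Epha5 and Sema4c as the exceptions. It was the same in both replicates in 48, Sema4b and Sema4c being the others. Sema7a-201 (100%), Plxna4-201 (97.1%), Plxnc1-201 (94.7%), Sema6b-201 (92.3%) and Ephb1-201 (92.1%) held the highest shares beside Unc5a-202. Sema6b-201 held 58% in the kallisto-layout table.

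The most divided genes, with a leading share under 35%, were Sema4a (Sema4a-201, 27.8% ± 3.05), Sema6d (Sema6d-208, 28.2% ± 0.495), Slit2 (Slit2-216, 22.1% in replicate 1 and 42.5% in replicate 2) and Sema4c (Sema4c-202, 34.6%), besides Epha5 and Robo2. The leading share of Slit2 was thus not settled by these libraries. Transcripts annotated with a retained intron held over 20% of the TPM in 13 of the 50 genes, where 19.6% of protein-coding genes had that much. The highest was Plxna3 with 51.5%. The libraries were made from total RNA, in which unspliced RNA can be present, and its amount was not measured here.

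Of the 28 gene pairs compared, 24 were called different, meaning that the sign was shared by both libraries and that the mean log2 ratio was over 0.5 and over 2 SD in size. The kallisto-layout table called 25, and 25 of the 28 pairs got the same verdict from both tables. Among the 11 ligand and receptor pairs the receptor had the higher mean in 8, of which Sema3e with Plxnd1 was not called, and in 7 in the kallisto-layout table, where that pair turned (0.42 ± 0.27). The exceptions were Sema7a with Plxnc1, Sema4d with Plxnb1 and Efnb3 with Ephb2. No test was made of a pair, because the smallest two-sided p of an exact sign-flip test over 2 libraries is 0.5.

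**Figure D3:**
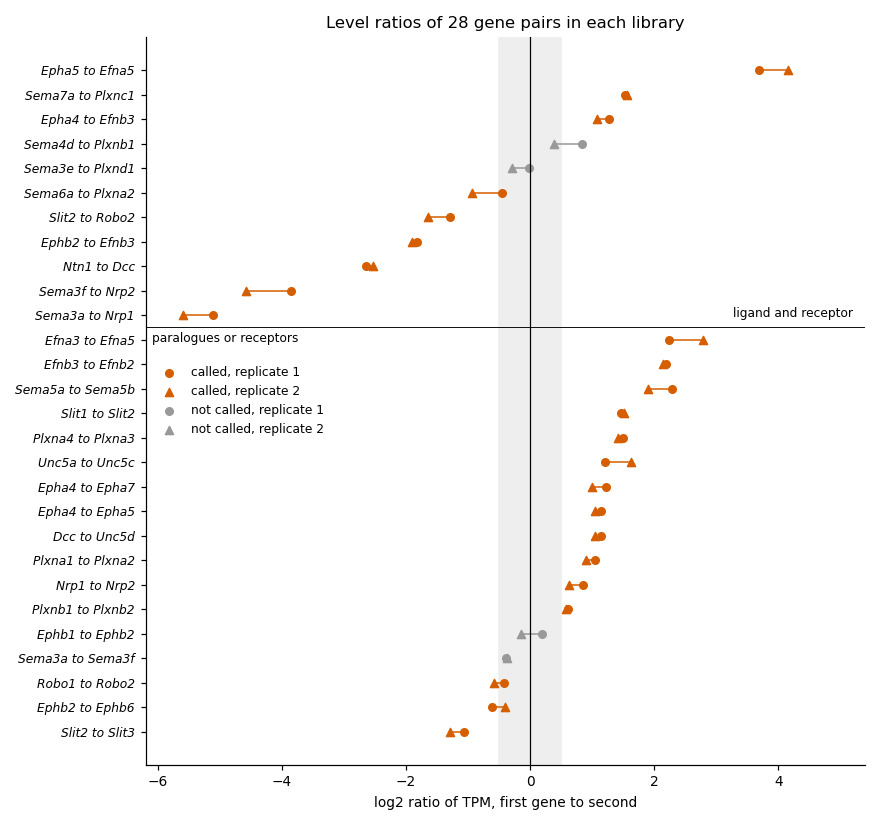
log2 ratio of TPM of the first gene to the second for 28 pairs, with circles for replicate 1, triangles for replicate 2, grey for pairs not called and a shaded band between -0.5 and 0.5. Sema3a to Nrp1 lies farthest to the left at -5.11 and -5.59 and Epha5 to Efna5 farthest to the right at 3.69 and 4.16.

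The libraries were then compared with each other by an exact two-sided binomial test on counts, adjusted by the Benjamini-Hochberg method over the 18332 genes tested. It asks whether 2 libraries of the same group differed beyond counting noise and compares no condition. All 69 genes had enough counts, and 36 differed at an adjusted p of 0.05, against 22.3% of all genes tested. Of these, 28 were higher in replicate 2, against 12.3% of all genes, and 8 were higher in replicate 1, against 9.92%. The median log2 ratio of replicate 2 to replicate 1 was 0.10 over the 69 genes, 0.00 over all genes and 0.02 over protein-coding genes. More counts let the test find smaller differences: at a mean count of at least 50, it called 36 of 65 of these genes and 28% of all genes. Scaling by the spike-ins moved the median of all genes to 0.11. The test then called 45 of the 69 in either direction, against 35% of all genes. Of the 45, 41 were higher in replicate 2 and 4 were lower, with the median of all genes also shifted upwards. When a coefficient of variation of 0.1 was assumed for the spread between samples (edgeR's exact test), 0 of the 69 were called, against 0.944% of all genes. Of the 69, 4 had an unadjusted p under 0.05, so none passed at a spread of that size.

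**Figure D4:**
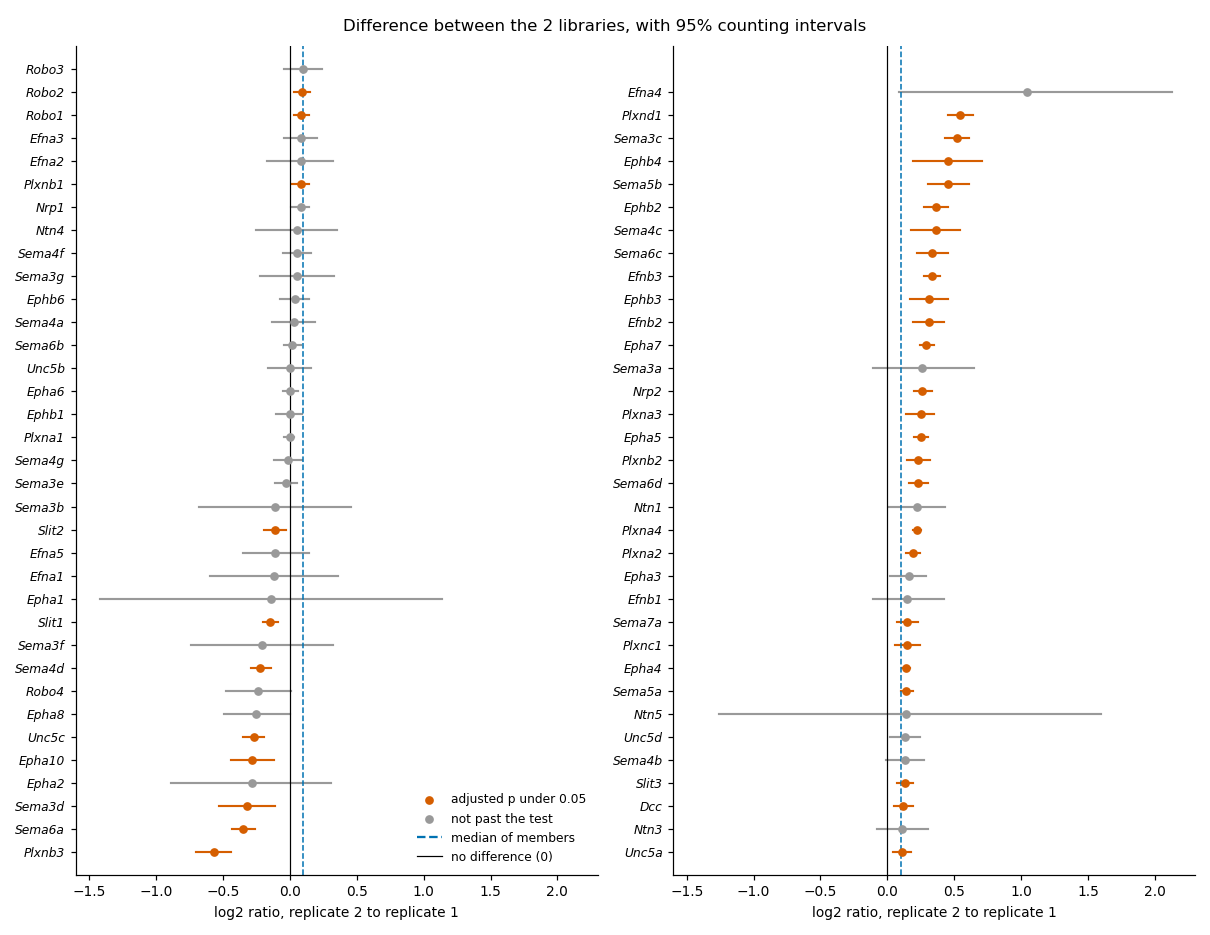
log2 ratio of counts in replicate 2 to replicate 1 for each gene, with 95% counting intervals, orange for genes past the binomial test and grey for the others, and a dashed line at the median of 0.10. Plxnd1 (0.54) and Sema3c (0.52) lie highest among the genes past the test and Plxnb3 (-0.57) lowest.

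Differences of 0.5 or more on the log2 scale that passed the test were seen in 3 genes, against 5.3% of all genes tested. Sema3c (chromosome 5, 17574281 to 17730268, plus strand) had 1782 and 2813 counts, a log2 ratio of 0.52 (95% counting interval 0.43 to 0.61; adjusted p 3.5e-31 by the binomial test). Plxnd1 had 1492 and 2394 counts, a log2 ratio of 0.54 (0.45 to 0.64; adjusted p 9.2e-29). Both were higher in replicate 2. Plxnb3 had 1105 and 821 counts and was lower there, with a ratio of -0.57 (-0.70 to -0.44; adjusted p 5.8e-16).

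The 8 genes higher in replicate 1 were Plxnb3, Sema6a (-0.35), Sema3d (-0.32), Epha10 (-0.28), Unc5c (-0.27), Sema4d (-0.22), Slit1 (-0.15) and Slit2 (-0.11). For Slit2 the ratio was 0.00 with spike-in scaling, and the gene passed the test under 1 of 7 other settings. Plxnb3 and Sema4d, the 2 genes listed here as known from oligodendrocytes, were both among the 8, and all 5 myelin markers were lower in replicate 2 as well (median log2 ratio -1.06). That list of 2 genes was made with earlier results of these data known. The oligodendrocyte precursor markers did not move with the myelin markers: of 3, 1 was higher in replicate 2 and 0 were lower (median 0.03). The 3 thalamic markers were all lower in replicate 2 (median -1.33), as were 3 of 4 choroid plexus markers (-0.75). The part of these cells in the result was not tested.

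Of the 7 genes known from blood vessels, Plxnd1 (0.54), Ephb4 (0.45) and Efnb2 (0.31) were higher in replicate 2, beside 12.3% of all genes tested. Nrp1 (0.08), Sema3g (0.05), Unc5b (-0.00) and Robo4 (-0.24) did not pass the test. Of the endothelial markers, 4 of 5 were higher in replicate 2 (list median 0.35). The dentate granule markers (median 0.52, 3 of 3 past the test) and immature neuron markers (0.46, 4 of 4) moved the same way. So did most markers of microglia (0.16, 3 of 4) and mural cells (0.20, 2 of 3). Whether these shifts account for any gene's ratio was not tested.

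By family, beside 12.3% of all genes tested, 7 of 9 plexins, 6 of 13 other semaphorins, 3 of 5 EphB genes, 3 of 9 EphA genes, 2 of 3 ephrin-B genes, 2 of 5 Dcc and Unc5 genes, 2 of 4 Robo genes, 1 of 2 neuropilins, 1 of 7 class 3 semaphorins and 1 of 3 Slits were higher in replicate 2. Beside 9.92% of all genes, 2 Slits, 2 other semaphorins and 1 gene each of the plexins, the EphA genes, the class 3 semaphorins and the Dcc and Unc5 genes were lower there. None of the 5 ephrin-A genes or 4 netrins passed the test. Epha4 (0.14), Epha5 (0.25) and Epha7 (0.29) were higher in replicate 2 together with Efnb3 (0.33) and Efnb2 (0.31). Epha6, the next in level after Epha4, had a ratio of 0.00 (interval -0.05 to 0.06). Plxna1 likewise lay at -0.00 (-0.04 to 0.03), while Plxna4 had 0.22 (0.19 to 0.25).

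Inside the cell these receptors act through adaptors, exchange factors and cytoskeletal proteins. Other partners lie at the cell surface or outside it, such as the membrane-anchored Ntng1 and the netrin antagonist Draxin. In all, 62 partner genes of both kinds were examined for comparison. All were detected, with a median of 41.2 TPM. Between the libraries, 28 of the 62 partners were higher in replicate 2, against 12.3% of all genes tested, and 8 were lower, a share near the 9.92% of all genes, and their median log2 ratio was 0.06. Semaphorin and plexin partners were led by Dpysl2 (307 ± 23.4 TPM), a collapsin response mediator, Mical2 (247 ± 10.3), which oxidises actin, and Crmp1 (192 ± 30.7). Eph partners were led by Chn1, an alpha-chimaerin that turns off Rac below Epha4, at 558 ± 32.6, with Kalrn at 193 ± 5.42 and Sipa1l1 at 72.6 ± 4.65.

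Of the netrin and repulsive guidance partners, Trio had 104 ± 7.71 TPM, Ptk2 53.4 ± 6.14 and Ntng2 53.1 ± 6.78. Slit and Robo partners were led by Srgap3 at 107 ± 1.03, Sdc3 at 101 ± 12 and Enah at 81.5 ± 0.594, and the shared effectors by Cfl1 at 733 ± 49.8, Rac1 at 194 ± 19.3 and Cdc42 at 175 ± 8.79. Partners past the test with a ratio of 0.5 or more were Draxin (0.54), a netrin antagonist, with 2.02 and 3.04 TPM, and Ntng1 (-0.57), a membrane-anchored netrin-G known from thalamic axons, with 16.2 and 11.9.

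The levels were last compared between the 2 kinds of table, each scaled to its protein-coding genes. Over the 64 detected genes the median log2 ratio of the kallisto-layout level to the gene-table level was -0.11, with a range from -0.66 to 0.43. Plxnd1 (-0.66) and Plxnb2 (-0.62) were the 2 that lay over 0.5 apart, against 8.37% of protein-coding genes. In both genes short noncoding transcripts held more of the TPM in the RSEM-layout table. For Plxnd1 the retained-intron transcript Plxnd1-204 had 33.8% there and 4.29% in the kallisto-layout table, and for Plxnb2 the processed transcript Plxnb2-205 had 21.3% and 0%. Epha2, under 1 TPM, was higher by 1.14 in the kallisto-layout table.

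**Figure D5:**
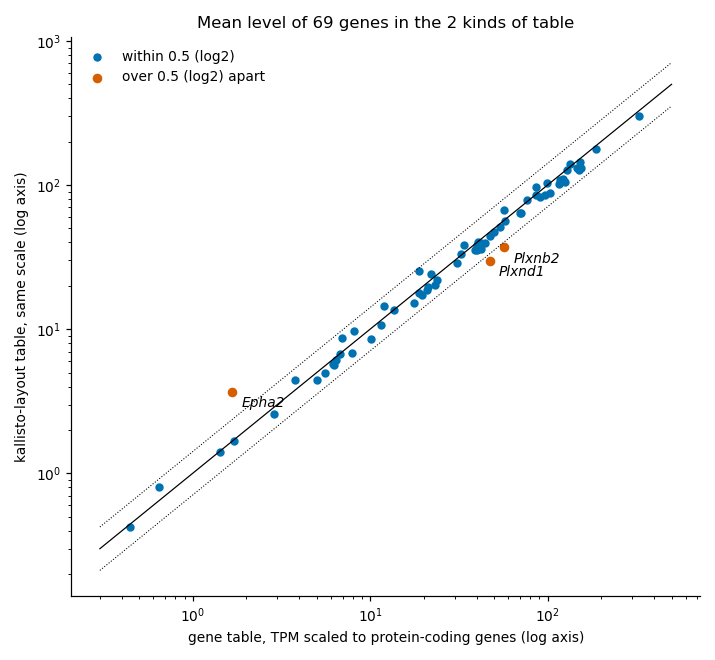
Mean level of the 69 genes in the gene tables (x) and in the kallisto-layout tables (y), each as TPM scaled to protein-coding genes on log axes, with the line of equality and dotted lines 0.5 apart on the log2 scale. Plxnd1, Plxnb2 and Epha2 are the 3 outside the dotted lines.

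By the deposited estimate of its uncertainty, the assignment of reads to these genes held little doubt. The deposited posterior standard deviation of the count was 0 in both libraries for 62 of the 64 genes with a mean of at least 1 TPM, against 82.3% of protein-coding genes, and reached at most 0.64% of the count. Of the 69 genes, 42 overlap another annotated gene and 31 of these overlap one on the opposite strand. The 6 that overlap a coding gene are Unc5a, Ntn3, Ephb4, Epha1, Ntn5 and Ephb1. Whether counts of the 42 genes include reads from the genes that overlap them was not tested.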

How the data were processed

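Counts are expected counts as deposited by the authors, estimated per gene and not normalized, and TPM values are the authors' too, per the file headers. Transcript shares are percent values deposited by the authors in an RSEM-layout table, and a kallisto-layout table holds estimated counts and TPM per transcript, per the file headers. The build was mm10 with GENCODE M21, per the submitters' processing notes. Aligner and quantifiers: not given in the sources used here.

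Genes were chosen by family symbol among 55536. The members, gene lists, pairs and tests were chosen with earlier results of these data known. Spike-ins (0.516% and 0.484% of counts) and entries that name no gene (2.7e-05% and 9.4e-06%) were left out. Expected counts were rounded, scaled by TMM (edgeR 4.0.16, R 4.3.3) and tested with an exact binomial test at a mean count of at least 10, a prior count of 0.5 for ratios and a threshold of 0.05. The code was tested on simulated data. DESeq2 1.42.0 gave other size factors. Genes under 5 TPM were left out of transcript shares. A count of 0 allows 3 counts, or 0.103 and 0.0945 CPM, and intervals cover counting error only. Coding sequences were read from the GENCODE M21 transcripts. Named genes were, per family, the 3 highest, those of the pairs, those under or nearest 1 TPM and those past the test by 0.5, with Epha7, Epha5, Dcc, Robo1, Robo3 and genes of high, low or disputed leading share for transcripts. Other settings were other scalings, filters, tables and thresholds, and single libraries.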

Additional observations from a re-analysis of the deposited data

How the results depend on the processing

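The count of genes detected (64) lay between 62 and 66 under other values, scales and limits, and was 64 in each library alone. The 36 genes differing between libraries were 34 to 45 under other scalings, filters and tables. They were 0 when edgeR assumed a coefficient of variation of 0.1, a setting that called 0.944% of all genes. The ratio of Slit2 turned from -0.11 to 0.00 with spike-in scaling. Pairs called ranged from 18 at a margin of 1 to 25, and were 23 in each library alone. Genes with a leading transcript fell from 33 to 18 at a share over 75% and to 19 at a floor of 20 TPM, since fewer can pass, and were 33 and 34 in single libraries. Leading transcripts shared by both tables fell from 47 to 27 at that floor and were 46 and 47 in single libraries. Levels depend on what else is in a table: protein-coding genes held 46.2% and 48.5% of the gene-table TPM and 76.6% and 79.8% of the kallisto-layout TPM, and levels in the latter were higher by a median of 1.54 times, with 2761 TPM over the 69 genes in place of 1793. Rescaling to protein-coding genes multiplied gene-table levels by 2.09 to 2.12, to 3782, and left all 12 families in their place by level, where the kallisto-layout table left 9, replicate 1 alone 10 and replicate 2 alone 12. No paired analysis was possible because there is 1 group.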
